A study of Rattus norvegicus with 29 samples.

Results

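The open chromatin regions (OCRs) described here lie around 2 genes of the rat genome that serve dopamine and adenosine signalling in the striatum, Adora2a and Ppp1r1b. They are all rows of the deposited OCR count table that overlap chr20:14170000-14380000, the window of Adora2a, or chr10:86210000-86400000, the window of Ppp1r1b, in the rat build rn6. The rule used position only and gave 44 of 98237 OCRs, 14 in the Adora2a window (named A1 to A14 along the chromosome) and 30 in the Ppp1r1b window (P1 to P30). ATAC-seq reads, which mark where a transposase could reach the DNA, came from 29 bulk libraries of adult male Sprague-Dawley rat brain. Sampled were nucleus accumbens (NAc, in the ventral striatum), the subventricular zone (SVZ) that lines the lateral ventricle next to the striatum, and 2 parts of the hippocampus, Ammon's horn (CA) and the dentate gyrus (DG). A rat was given saline at 1 mL/kg or methamphetamine (METH) at 10 mg/kg, as 4 injections into the peritoneum with 2 h between them. Tissue was taken at a single time after the last injection, so every METH comparison holds for that time only. Each of NAc, DG and CA was sampled in 4 rats per treatment, whereas 3 saline and 2 METH rats gave SVZ.

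Adora2a encodes the adenosine A2a receptor, which couples to the stimulatory G proteins that raise cyclic AMP and is dense on the striatal projection neurons of the indirect pathway, where it opposes the dopamine D2 receptor. Ppp1r1b encodes DARPP-32, a protein of striatal projection neurons of both pathways that becomes an inhibitor of protein phosphatase 1 when protein kinase A phosphorylates it, and so carries dopamine and adenosine signals on to ion channels and the nucleus. In the RefSeq gene order of the rat assembly GRCr8, Adora2a stands between the protein-coding genes Upb1 and Specc1l. Ppp1r1b stands between Neurod2, a transcription factor of excitatory neurons, and Stard3, followed by Tcap, Pnmt, Pgap3 and Erbb2. The windows therefore hold DNA of other genes, and the position of each OCR relative to gene starts was not analysed here because no rn6 annotation was used. The OCRs are called OCRs in the window and are not assigned to a gene.

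Total OCR counts ranged from 7.55 M to 19.4 M per library. Values are counts per 1 M counts of the upper-quartile-scaled library size (CPM, M being mega). Levels of different OCRs are set beside each other as CPM per kb of OCR, except where OCRs are ranked by mean CPM. Such ranks do not allow for OCR width. The name that each peak carries gave the animal, and libraries of 1 animal occur in several regions. These names also fell into 2 series, called name series 1 and 2 here. Outside SVZ, libraries numbered 1 or 2 under either treatment belonged to series 1, and those numbered 3 or 4 to series 2. Among SVZ libraries, only saline replicate 1 belonged to series 1, so both METH libraries shared series 2 with saline replicates 2 and 3. Treatment was thus not balanced over the series in SVZ. Fits of series 1 alone had that saline library as their only SVZ library. One of the 2 SVZ METH libraries (replicate 2) carried a further tag whose meaning was not given in the sources used here.

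A pair of libraries stood apart from the rest of their region. Over the 4573 OCRs outside the windows that were called higher in NAc than in the other 3 regions of saline rats, the median level in the library labelled NAc METH replicate 3 was 1.48 CPM. The other 7 NAc libraries lay between 4.38 and 7.94 CPM, and the 16 DG and CA libraries between 0.516 and 1.24 CPM. SVZ saline replicate 3 had 6.97 CPM over the same OCRs, while the other 4 SVZ libraries had 2.95 to 4.74 CPM. Some results that rest on either library are also given without it. Where no such value is given, the result includes the library.

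The OCRs were spread thinly in the Adora2a window and densely in the Ppp1r1b window. The median gap between neighbouring OCRs was 13.7 kb in the Adora2a window and 2.93 kb in the Ppp1r1b window, with 9.28 kb in the whole table. Within 15 kb of the centre of P14 lay 11 OCRs, P9 to P19. OCR widths ran from 274 to 1139 bp in the Adora2a window and from 248 to 1215 bp in the Ppp1r1b window, with medians of 620.5 and 709.5 bp beside 662 bp in the whole table.

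**Figure D1:**
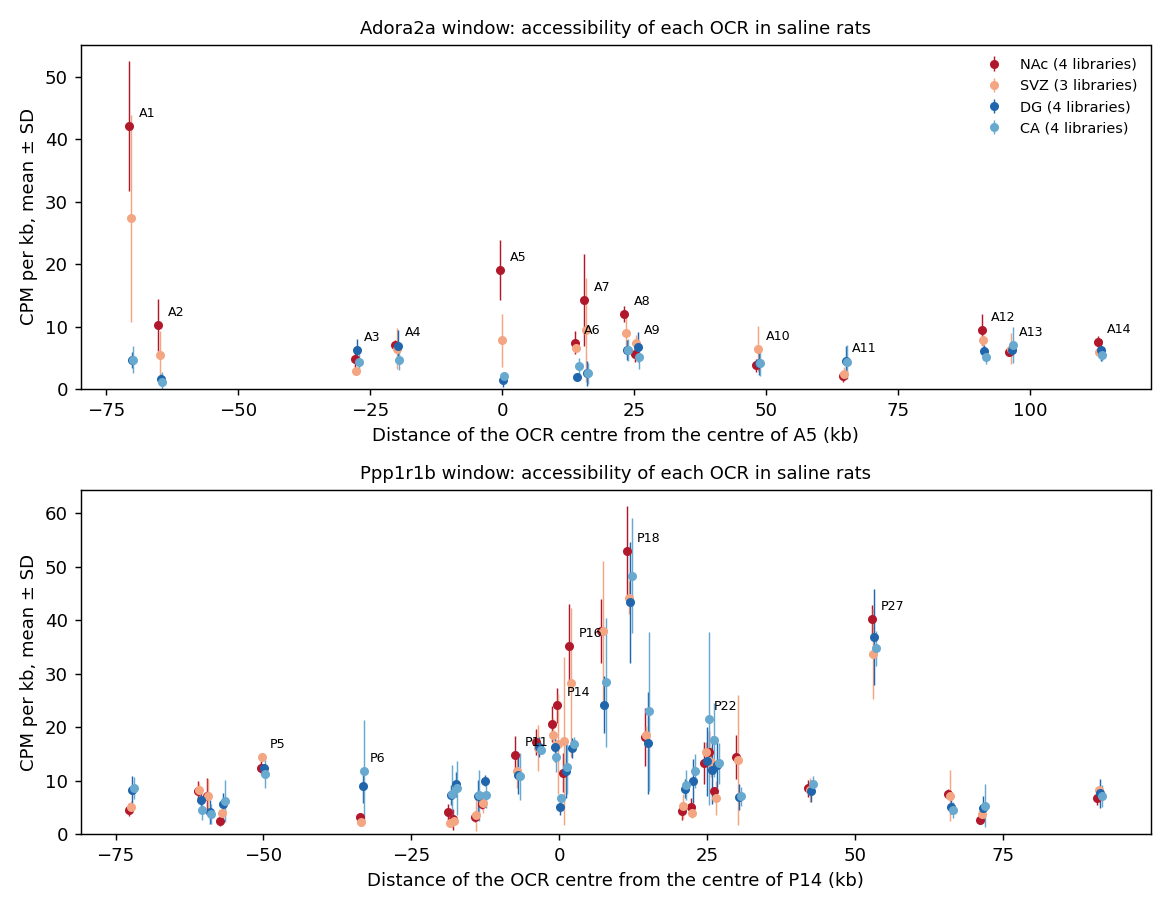
Accessibility of each OCR in saline rats (CPM per kb of OCR, mean ± SD over the 3 or 4 libraries of a region) against the distance of its centre from the centre of A5 (top) or P14 (bottom), in kb. In the Adora2a window A1, A2, A5 and A7 have their highest means in NAc and intermediate means in SVZ, while in the Ppp1r1b window the tallest OCRs, P18 and P27, are of like height in the 4 regions.

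As a whole, the Adora2a window took a larger share of the OCR counts in NAc than in hippocampus, and the Ppp1r1b window did not. In saline rats the 14 OCRs of the Adora2a window held 104.9 ± 23.9 counts per M OCR counts in NAc (SD, n = 4), 79.5 ± 27 in SVZ (SD, n = 3), 46.2 ± 6.91 in DG (SD, n = 4) and 42.5 ± 12 in CA (SD, n = 4). The saline SVZ libraries held 61.9, 66.1 and 110.6 per M, and 110.6 per M is replicate 3. The lowest NAc library, with 786 counts in the window, held 71.7 per M (95% Wilson interval 66.8 to 76.9), above the highest hippocampal library at 53.7 per M. The 30 OCRs of the Ppp1r1b window held 278.6 ± 26.7 per M in NAc, 271.8 ± 47.1 in SVZ, 249.2 ± 18.5 in DG and 274.3 ± 14.8 in CA, and these groups overlapped. The interval covers counting error only. In bulk tissue, fewer cells of a type and less open chromatin per cell cannot be told apart.

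The first comparison asked which OCRs of the windows differ between the 4 regions in the 15 saline libraries. Against the mean of the other 3 regions, NAc was higher at A1, A5 and P14, which is 3 of 44 OCRs, and lower at none (edgeR quasi-likelihood F test, log2 fold change beyond 1 and adjusted p under 0.01 over the whole table). In the whole table, 4.66% of OCRs were called higher and 0.263% lower in NAc by the same rule. Nominal p was under 0.05 for 15 of the 44 OCRs and for 22.3% of the table. The median log2 fold change was 0.47 over the Adora2a window, where 10 of 14 estimates were above 0, and -0.06 over the Ppp1r1b window, where 14 of 30 were above 0. The median of all OCRs was -0.07.

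**Figure D2:**
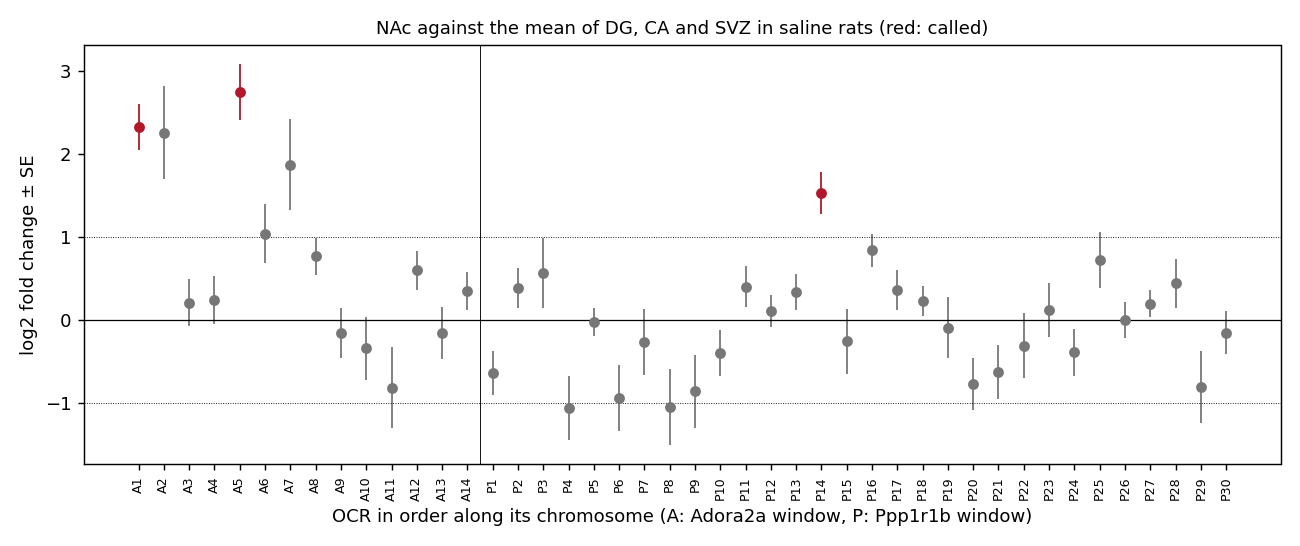
Log2 fold change (± SE) of NAc against the mean of DG, CA and SVZ in saline rats for each of the 44 OCRs, in order along each chromosome; dotted lines mark 1 and -1, and red points are the OCRs called. A1, A5 and P14 are red, A2 and A7 lie above P14 with wider errors, and the estimates of the remaining Ppp1r1b OCRs lie between -1.06 and 0.84.

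A1 (chr20:14188575-14189464) was the most accessible OCR of the Adora2a window, with 16 CPM per kb over the 29 libraries, and lay 70.3 kb before A5. Its level in the 4 saline NAc libraries was 43.0, 27.2, 32.6 and 47.2 CPM. The saline DG libraries had 4.19, 2.47, 5.15 and 4.61 CPM, and the saline CA libraries 2.35, 2.82, 5.52 and 6.06 CPM. Every NAc library was thus far above every hippocampal library. In SVZ the saline libraries had 16.8, 14.9 and 41.4 CPM, so that replicate 3 alone fell within the NAc range. NAc exceeded DG at A1 by a log2 fold change of 3.19 ± 0.39 (SE; 9.12-fold; edgeR adjusted p = 0.000163) and CA by 3.15 ± 0.39 (8.90-fold; edgeR adjusted p = 0.000101). The difference from SVZ was 0.63 ± 0.39 and did not pass (edgeR adjusted p = 0.997). Without SVZ saline replicate 3 it was 1.24 ± 0.40 (edgeR adjusted p = 0.629).

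A5 (chr20:14259029-14259666) had the largest NAc difference of the window, a log2 fold change of 2.74 ± 0.34 (SE) against the other 3 regions (edgeR adjusted p = 9.41e-05). The saline NAc libraries had 12.7, 7.74, 13.9 and 14.3 CPM. DG had 0.476, 0.183, 1.75 and 1.32 CPM, and CA had 1.32, 1.44, 1.53 and 0.872 CPM, from 2 to 22 counts a library. SVZ had 3.90, 2.95 and 8.04 CPM, and 8.04 CPM is replicate 3. The lowest NAc library lay above all hippocampal libraries, and NAc and SVZ overlapped only through SVZ replicate 3. A5 was 12.9-fold higher in NAc than in DG (log2 fold change 3.69 ± 0.50, edgeR adjusted p = 0.000262) and 9.45-fold higher than in CA (3.24 ± 0.48, edgeR adjusted p = 0.000284). Against SVZ the log2 fold change was 1.30 ± 0.48 (edgeR adjusted p = 0.997). Without SVZ saline replicate 3 it was 1.83 ± 0.55 (edgeR adjusted p = 0.629).

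A2 and A7, also in this window, had estimates of like size on few counts and were named after their values were seen. A2 lay 64.8 kb before A5, had 23 to 73 counts in the saline NAc libraries and gave a log2 fold change of 2.25 ± 0.56 for NAc against the others (edgeR adjusted p = 0.0140). With the animal as a block, A2 passed, at 2.49 ± 0.50 (edgeR adjusted p = 0.00347). A7, 15.9 kb after A5, had 1.87 ± 0.55 (edgeR adjusted p = 0.0386). A6, A8 and A12 had 1.04, 0.76 and 0.60, none of which passed.

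These OCRs made up much of the window in NAc. The 4 with the largest estimates, A1, A2, A5 and A7, held 54.5 ± 4.57% of the window's counts in the saline NAc libraries (SD, n = 4) and 42.3 ± 14.5% in SVZ (SD, n = 3). In DG they held 13.5 ± 4.95% and in CA 15.7 ± 3.46% (SD, n = 4 each). They were chosen by this readout, and the shares are given as a description.

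The other OCRs of the Adora2a window gave no region call by edgeR without a block. DESeq2 called A6 higher in NAc than in DG (2.01 ± 0.46, DESeq2 adjusted p = 0.000278) and lower in DG than in SVZ, and it called A2 and A7 higher in NAc than in DG and CA. A4 (chr20:14238904-14240042), the second by mean CPM, had 8.0 ± 0.913 CPM in NAc, 7.91 ± 2.88 in DG, 5.35 ± 1.89 in CA (SD, n = 4 each) and 7.35 ± 3.72 in SVZ (SD, n = 3) of saline rats. A8 (chr20:14282344-14283285), the third, had 12.8, 10.8, 11.9 and 9.86 CPM in NAc, above all hippocampal libraries, which reached 8.22 CPM. Its log2 fold change was 0.76 ± 0.22 (edgeR adjusted p = 0.0364). A11 (chr20:14323936-14324573) had the most negative estimate of the window, -0.82 ± 0.49 (edgeR adjusted p = 0.356), with 0.487 to 1.84 CPM in NAc and 0.985 to 5.05 CPM in the hippocampal libraries.

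In the Ppp1r1b window the OCRs called higher in NAc, P14 and P16, stood inside the dense group P9 to P19. P14 (chr10:86301306-86301715) had 8.18, 9.47, 11 and 10.9 CPM in saline NAc. DG had 2.95, 1.46, 1.75 and 2.27 CPM, CA had 2.70, 2.49, 3.05 and 2.85 CPM, and SVZ had 5.70, 3.82 and 11.2 CPM. NAc lay above both hippocampal regions in every library, and SVZ replicate 3 was again the one SVZ library that was not below the NAc libraries. The log2 fold change of NAc against the other 3 was 1.52 ± 0.25 (SE; edgeR adjusted p = 0.000625), 4.66-fold against DG and 3.55-fold against CA.

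P16 (chr10:86303151-86304161), 2.1 kb after P14, had 47.2, 29.3, 31.8 and 34.1 CPM in saline NAc. The saline hippocampal libraries lay between 13.9 and 18.5 CPM, and the SVZ libraries had 24.4, 17.1 and 44.3 CPM. NAc was 2.19-fold higher than DG and 2.09-fold higher than CA at P16 (edgeR adjusted p = 0.00579 and 0.00737), so that both pairs of regions called A1, A5, P14 and P16, 4 of 44 OCRs. The background was 4.74% of the table higher in NAc than in DG and 5.77% higher than in CA. By edgeR no OCR of the windows was lower in NAc, beside 1.49% and 1.27% of the table. DESeq2 called P8 lower in NAc than in DG, 1 of 44 beside 4.01% of the table, and P1, P6, P8 and P21 lower than in CA, 4 of 44 beside 4.77%. By edgeR there were 19 of 44 at an unadjusted p under 0.05 in either direction for each pair. In the whole table it was 25.2% of OCRs against DG and 26.6% against CA. With the animal as a block, A6 was added against DG (1.94 ± 0.45, edgeR adjusted p = 0.00855) and A2 against CA (3.48 ± 0.71, edgeR adjusted p = 0.00329). Against the mean of the other 3 regions P16 had 0.84 ± 0.20, below the fold required (edgeR adjusted p = 0.00963). The P16 call against DG was kept in 8 of 15 fits that left out 1 saline library (log2 fold change 0.96 to 1.21) and was lost without any of the 4 DG libraries or NAc replicate 1, 3 or 4. The P16 call against CA was kept in 7 of 15 (0.90 to 1.15) and was lost without any of the 4 CA libraries, DG replicate 4 or NAc replicate 1, 3 or 4. A1, A5 and P14 were called in all 15 such fits against DG, against CA and against the other 3.

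The tallest OCRs of the Ppp1r1b window differed little between regions. P18 (chr10:86313135-86313727), 11.9 kb after P14 and the most accessible per length with 47.4 CPM per kb, had 31.4 ± 4.98 CPM in NAc, 25.7 ± 6.75 in DG, 28.7 ± 6.37 in CA (SD, n = 4 each) and 26.2 ± 1.86 in SVZ (SD, n = 3). P27 (chr10:86354339-86355137), 53.2 kb after P14, had 32.1 ± 2.22, 29.5 ± 7.24, 27.8 ± 2.58 and 26.9 ± 6.75 CPM in the same order. For NAc against the other 3, P18 had a log2 fold change of 0.23 ± 0.17 (edgeR adjusted p = 0.511) and P27 of 0.19 ± 0.17 (edgeR adjusted p = 0.564).

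P4 and P6 of the Ppp1r1b window had higher means in hippocampus, and neither was called between NAc and hippocampus by edgeR over the 15 saline libraries. P4 (chr10:86244204-86244918) had the most negative NAc estimate, -1.06 ± 0.39 (edgeR adjusted p = 0.102), with 0.974 to 2.47 CPM in NAc and 1.51 to 8.21 CPM in the hippocampal libraries. P6 (chr10:86267706-86268630) was named after its values were seen. Its saline CA libraries had 10.1, 3.35, 23.5 and 6.66 CPM, its DG libraries 5.05, 7.58, 12.0 and 8.64 CPM, and its NAc libraries 3.41, 2.55, 2.59 and 3.39 CPM. CA was the most variable group, and its replicate 2 reached down into the NAc range. NAc against CA gave -1.86 ± 0.46 (edgeR adjusted p = 0.0101), just outside the threshold. P6 was called by DESeq2, at -1.92 ± 0.46 (DESeq2 adjusted p = 0.000465), and by edgeR in name series 2 alone, at -2.32 ± 0.52 (edgeR adjusted p = 0.00986).

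Nonoverlap of single libraries gave the same order of the windows in the saline libraries. In saline rats, 10 of 44 OCRs were higher in every NAc library than in every DG and CA library, beside 8.86% of the table: A1, A2, A5, A6, A7, A8 and A12, and P14, P16 and P28. Only P20 and P24 were lower in every NAc library, 2 of 44 beside 2.88% of the table. At A1, A5, A6 and P14 the SVZ libraries too were above every hippocampal library, 4 of 44 beside 5.51% of the table. In the METH libraries, NAc replicate 3 included, only A1 and A2 were higher in every NAc library, 2 of 44 beside 4.66% of the table. There P6, P7, P8 and P21 were lower in every NAc and SVZ library than in every hippocampal library, 4 of 44 beside 0.875%. In saline rats 0 of 44 were so, beside 1.27% of the table. The METH comparison has only 2 SVZ libraries, and P7 and P8 lie 225 bp apart.

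The remaining pairs gave few calls. A1 and P14 were lower in DG than in SVZ, 2 of 44 OCRs beside 1.67% of the table, and A1 was lower in CA than in SVZ, 1 of 44 beside 2.42%. None was higher by edgeR, beside 0.36% and 0.272% of the table. DESeq2 called P6 higher in DG than in SVZ, 1 of 44 beside 2.42%, and P6, P7 and P21 higher in CA than in SVZ, 3 of 44 beside 2.56%. P6 was also called higher in CA than in SVZ by edgeR in name series 2 alone. The log2 fold changes at A1 were -2.56 ± 0.40 and -2.53 ± 0.39. None of the 3 calls was made without SVZ saline replicate 3, where A1 had -1.95 ± 0.37 and -1.91 ± 0.37 (edgeR adjusted p = 0.0251 and 0.0166). The A1 call against DG was also lost without DG replicate 4. The P14 call was kept in 4 of 15 fits that left out 1 saline library, those without CA replicate 2, 3 or 4 or SVZ replicate 2, with -2.0 to -1.17 over the 15. With the animal as a block, P14 was not called against SVZ (edgeR adjusted p = 0.0143), and P6 was called higher in CA than in SVZ (2.37 ± 0.45, edgeR adjusted p = 0.00695). Against the other 3 regions, A1 was lower in DG (-1.93 ± 0.34, beside 0.188% of the table lower) and in CA (-1.88 ± 0.33, beside 0.708%), while none was higher in DG or CA (0.155% and 0.0814% of the table). The DG call was kept in 4 of 15 fits that left out 1 saline library, those without CA replicate 1, 2 or 4 or SVZ replicate 1 (-2.05 to -1.72 over the 15). The CA call was kept in 6 of 15, those without CA replicate 2 or 4, DG replicate 2, NAc replicate 2 or SVZ replicate 1 or 2 (-2.12 to -1.68 over the 15).

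No OCR of the windows was called between NAc and SVZ, between DG and CA, or in SVZ against the other 3 by edgeR. At an unadjusted p under 0.05 there were 1, 0 and 9 of the 44, beside 3.81%, 0.893% and 15.4% of the table, and DESeq2 called 0, 0 and 1, the last being A1. In the whole table edgeR called 0% of OCRs between NAc and SVZ, 0% between DG and CA, and 0.399% higher and 0.00611% lower in SVZ.

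The NAc differences at A1, A5 and P14 had the same direction in both name series of the saline libraries. In series 1 alone, the log2 fold changes of NAc against the other 3 were 2.74 at A1, 3.06 at A5 and 1.46 at P14, and no OCR of the 98227 tested was called. In series 2 alone they were 2.11, 2.72 and 1.62, with A1 and A5 called and P14 at an edgeR adjusted p of 0.0109.

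The 14 METH libraries gave a second set of libraries for the same regions, from other animals. NAc against the other 3 gave 1.90 ± 0.34 at A1, 1.78 ± 0.52 at A5, 1.81 ± 0.37 at P14 and 0.69 ± 0.23 at P16, and called A1 and P14, 2 of 44 OCRs beside 2.18% of all OCRs called higher. Without NAc METH replicate 3 the values were 2.19, 2.12, 2.12 and 0.93, and A1, A2, A7 and P14 were called, 4 of 44 beside 5.13% of the table. A5 then missed at an edgeR adjusted p of 0.0102. In these libraries P6, P7, P8 and P21 were lower in NAc than in CA, with log2 fold changes of -2.76 ± 0.43, -2.53 ± 0.45, -2.43 ± 0.46 and -1.91 ± 0.39, 4 of 44 OCRs beside 3.78% of the table. At P6, P7 and P8 CA was also called higher than the other 3 regions (2.27 ± 0.33, 2.01 ± 0.35 and 1.94 ± 0.35), 3 of 44 beside 1.19%. The 4 calls were the same without NAc METH replicate 3.

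The peak lists, called by the authors in each library on its own, gave a second readout of the same reads. A1 had a peak in all 8 NAc and all 5 SVZ libraries, in 3 of 8 DG and in 6 of 8 CA libraries. Its median fold enrichment over background was 15.3 in NAc, 9.29 in SVZ, 4.86 in DG and 5.0 in CA, over the libraries with a peak. A5 had a peak in 7 of 8 NAc, 3 of 5 SVZ, 2 of 8 CA and no DG library, and the NAc library without one was NAc METH replicate 3. P14 had a peak in 4 NAc libraries and in no other, with a fold enrichment of 2.43 to 3.20, so that it was a weak peak where called. P16, P17, P18, P22 and P27 had a peak in all 29 libraries, 5 of 44 OCRs beside 21.2% of the table. A2, A7, P3 and P14 had peaks in NAc and in no hippocampal library, 4 of 44 beside 6.39% of the table.

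**Figure D3:**
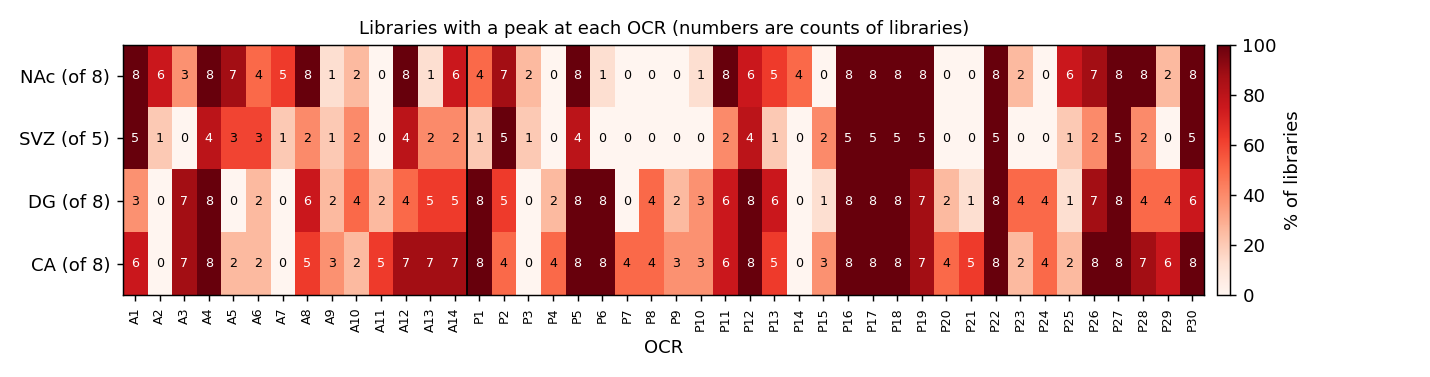
Number and percentage of libraries of each region, saline and METH together, whose own peak list holds a peak that overlaps the OCR by 1 bp or more. A2, A7, P3 and P14 have peaks in NAc and in none of the 16 hippocampal libraries, whereas P6 has a peak in all 16 hippocampal libraries, in 1 NAc library and in no SVZ library.

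Other OCRs had hippocampal peaks only. Of the 30 OCRs of the Ppp1r1b window, 7 (P4, P7, P8, P9, P20, P21 and P24) had peaks in hippocampal libraries and none in the 13 NAc and SVZ libraries, as did A11 of the Adora2a window, in all 8 of 44 OCRs beside 12.8% of the table. P6 had peaks in all 16 hippocampal libraries and in 1 of the 13 others. The median fold enrichment at P6 was 7.75 in CA and 5.64 in DG.

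Across the 29 libraries, the levels of 6 OCRs of the Adora2a window followed A5 most closely. The Pearson correlation of log2 CPM with A5 was 0.92 for A1, 0.84 for A7, 0.80 for A2, 0.72 for A6, 0.71 for A8 and 0.70 for A12. It was 0.41 for A14, 0.30 for A9, 0.09 for A4, -0.11 for A13, -0.23 for A10, -0.34 for A3 and -0.38 for A11. With P14 it was 0.85 for P16, 0.79 for P25 and 0.64 for P2, and it was negative for P8 (-0.59), P6 (-0.55) and P1 (-0.54). On other chromosomes the OCRs most like A5 were chr9:51463635-51464092, chr14:79665488-79665813 and chr17:20650883-20651629, each with 0.95. Those most like P14 were chr15:60760699-60761217, chr15:32550971-32551477 and chr14:80795822-80796226, each with 0.94. At each of the 29 points the OCRs compared share region, library and depth. A5 and P14 were picked for the largest NAc difference of their windows, and the correlations are a description.

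P22 (chr10:86325945-86326956) and P19 (chr10:86316006-86316748) varied widely between hippocampal libraries of 1 group, and were named for this after their values were seen. In saline CA, P22 had 32.7, 38.9, 9.88 and 6.02 CPM and P19 had 26.5, 26.8, 7.41 and 7.67 CPM. In METH-treated DG, P22 had 35.0, 17.0, 7.29 and 33.6 CPM. In saline CA, the higher values of P22 and P19 were those of replicates 1 and 2, which are in name series 1. METH-treated DG did not split by series in this way at P22. The share of a library's counts that fell in the most accessible 10% of OCRs was also higher in those saline CA libraries. It was 55.3, 57.1, 45.5 and 45.9% in the 4 saline CA libraries and 62.4, 59.0, 47.1 and 56.8% in the 4 METH DG libraries. In METH DG its order was not that of P22, since replicate 2 had a higher share than replicate 4 and a lower P22 value. The part of this share or of the name series in the spread of P19 and P22 was not tested.

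**Figure D4:**
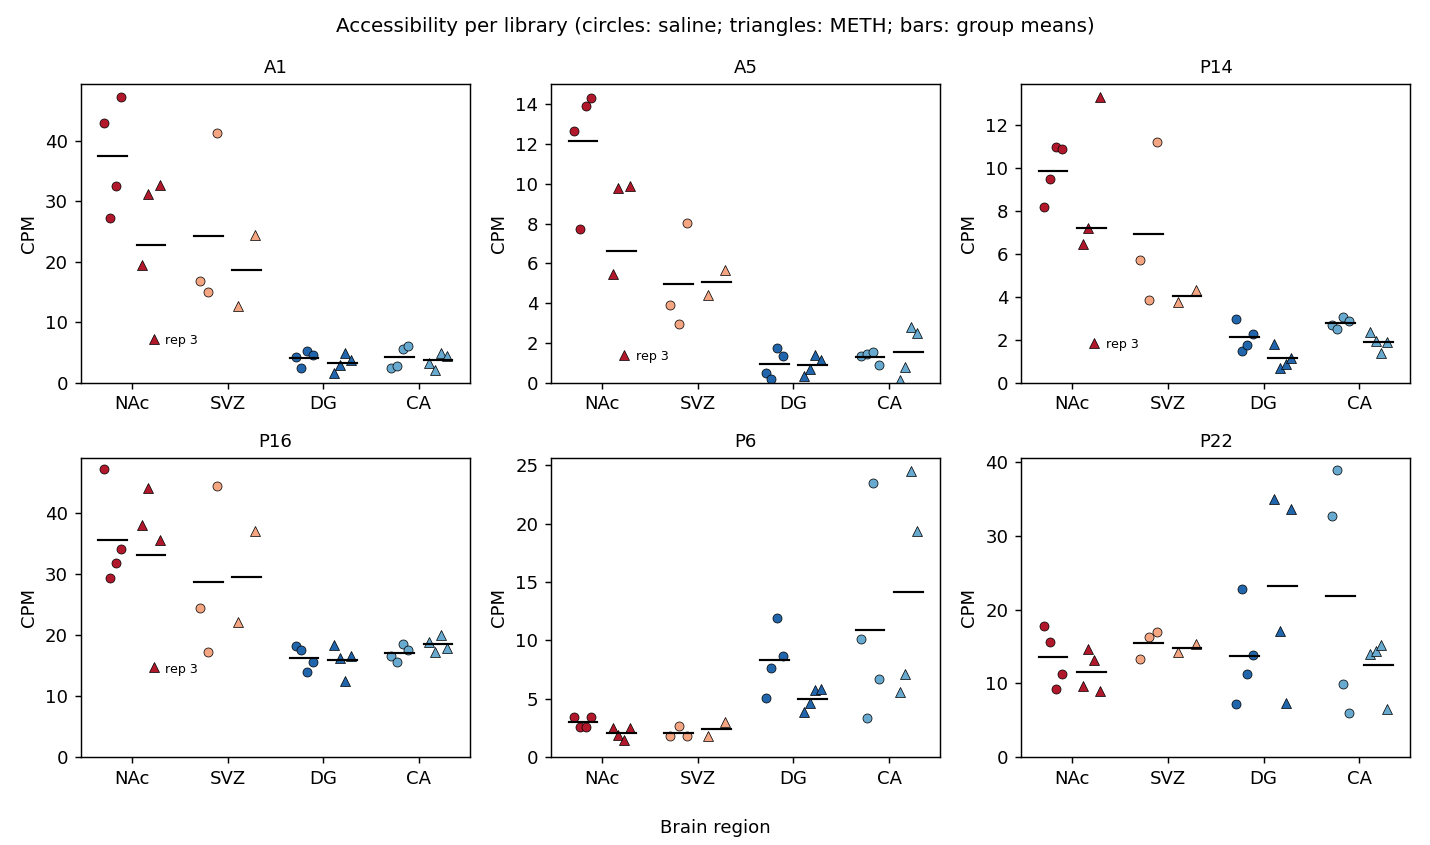
CPM of 6 OCRs in each of the 29 libraries, by region; circles are saline, triangles METH and bars group means, with NAc METH replicate 3 marked in the panels of A1, A5, P14 and P16. The saline NAc libraries of A1 lie at 27.2 to 47.2 CPM and its hippocampal ones at 2.35 to 6.06 CPM, and replicate 3 is the lowest NAc library in the 4 panels where it is marked.

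The second comparison asked whether METH changed accessibility in each region. No OCR of either window was called in any of the 4 regions (edgeR, fold above 1.5 and adjusted p under 0.001), and the same test called 0% of the 98237 OCRs in each region. With 5 RUVr factors as covariates, which are estimates of unwanted variation from the residuals of the fit, edgeR also called 0 of the 44 in every region, while of the table it called 4.64% in DG, 0.198% in SVZ, 0.0122% in NAc and 0% in CA. DESeq2 called none of the 44 in NAc or CA. It gave no adjusted p for all 44 in DG and for 35 of 44 in SVZ, and called none of the other SVZ members. At an unadjusted p under 0.05, NAc had 2 of 44, DG 4, CA 0 and SVZ 1, beside 2.45%, 9.84%, 0.82% and 3.47% of the table. The median log2 fold change of METH against saline over the 44 OCRs was -0.22 for NAc, -0.22 for DG, -0.04 for CA and -0.07 for SVZ. For all OCRs the medians were -0.01, -0.15, 0.02 and -0.01 in that order.

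**Figure D5:**
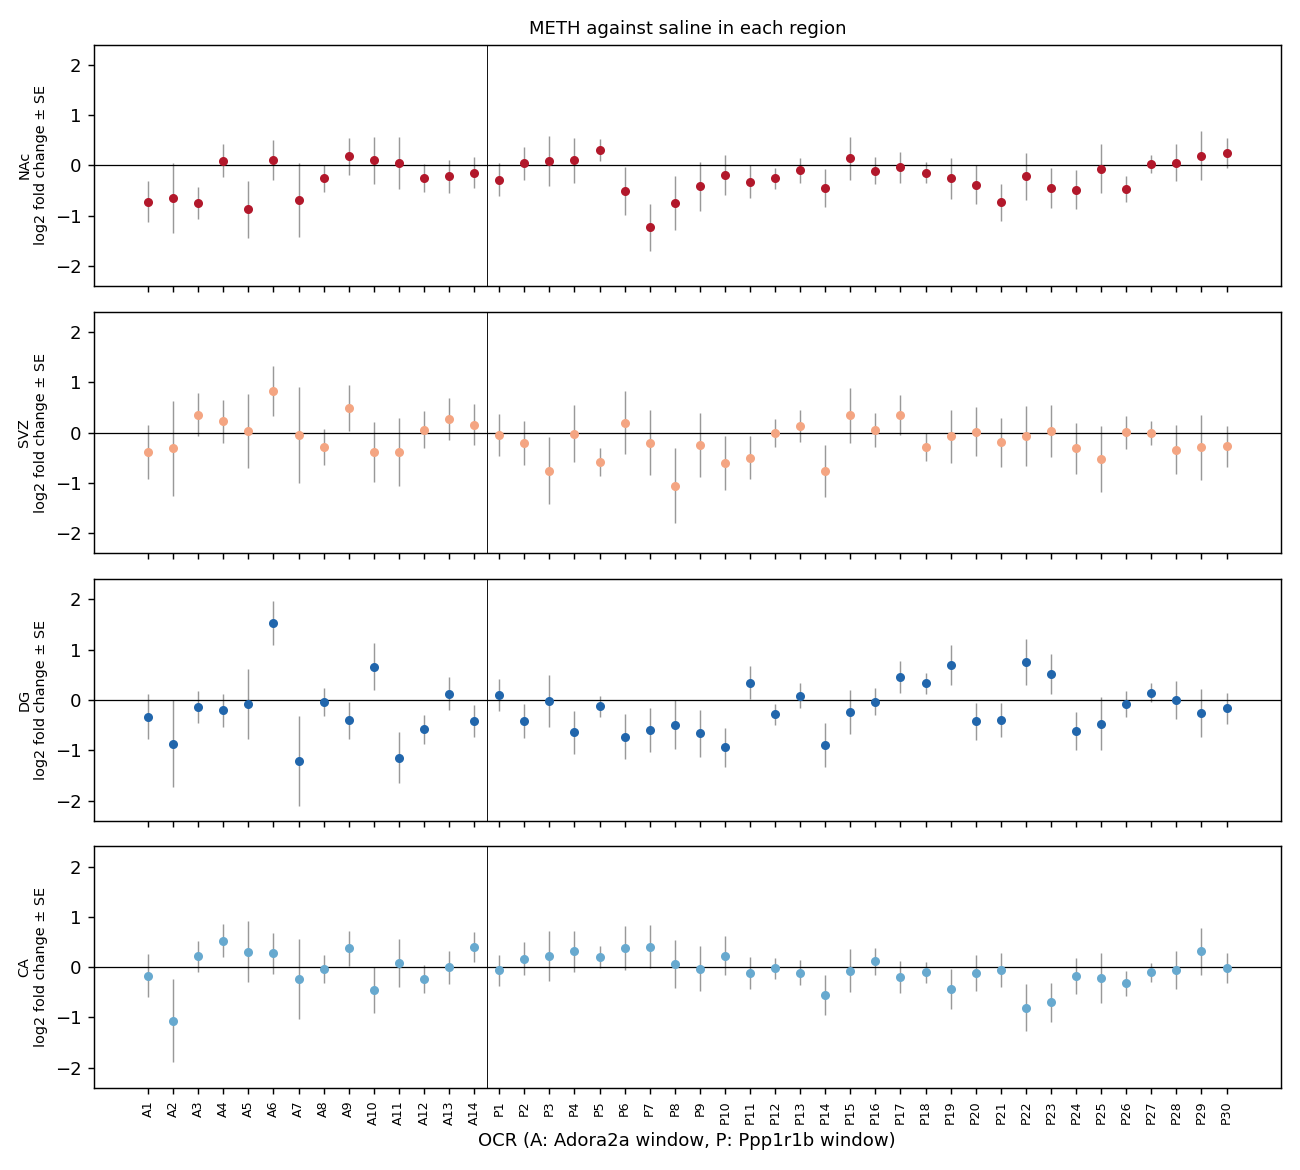
Log2 fold change (± SE) of METH against saline for the 44 OCRs in NAc, SVZ, DG and CA, in order along each chromosome. No point was called, and the estimates lie between -1.23 and 1.53 over the 4 regions.

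A1, A5, P14 and P16, the OCRs that edgeR called higher in NAc than in DG and CA, had lower means after METH in NAc. None of these differences was called. A1 had 19.5, 31.3, 7.29 and 32.7 CPM in the METH NAc libraries, and 7.29 CPM is replicate 3. The log2 fold change at A1 in NAc was -0.72 ± 0.41 (SE; edgeR adjusted p = 1.00), and -0.43 ± 0.39 without that library. A5 had 5.44, 9.79, 1.38 and 9.87 CPM after METH, a log2 fold change of -0.88 ± 0.56, or -0.54 ± 0.55 without replicate 3. With 5 RUVr factors the estimates were -0.87 ± 0.15 at A1 (edgeR adjusted p = 0.00149) and -1.08 ± 0.30 at A5 (edgeR adjusted p = 0.0464), neither under 0.001. At both OCRs the METH and saline libraries overlapped.

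P14 had 6.45, 7.20, 1.85 and 13.3 CPM in the METH NAc libraries, which span the saline ones. Its log2 fold change was -0.45 ± 0.38, or -0.13 ± 0.34 without replicate 3. P16 had 38.1, 44, 14.7 and 35.6 CPM, with -0.11 ± 0.26, and the estimate turned to 0.14 ± 0.24 without replicate 3. Replicate 3 was thus the lowest NAc library at all 4 OCRs, as it was over the OCRs outside the windows.

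The OCRs with the lowest unadjusted p for METH in NAc were not among those that edgeR called between regions over the 15 saline libraries. They were A3 (chr20:14231246-14232161), with -0.75 ± 0.33 (edgeR adjusted p = 1.00), and P7 (chr10:86282843-86283329), with -1.23 ± 0.47 (edgeR adjusted p = 1.00). P7 was, however, called lower in NAc than in CA in the METH libraries, and DESeq2 called it higher in CA than in SVZ of saline rats. A3 had 4.77, 2.55, 4.98 and 5.55 CPM in saline and 2.11, 3.78, 2.4 and 2.33 CPM after METH. P7 had 2.43, 2.55, 2.11 and 0.925 CPM in saline and 0.604, 0.923, 0.646 and 1.17 CPM after METH. At both, the lowest saline library lay below the highest METH library, and the other 3 saline libraries lay above every METH library.

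In DG, A6 (chr20:14273319-14273663) had 0.476, 0.457, 0.927 and 0.806 CPM in saline and 1.81, 1.2, 3.35 and 1.43 CPM after METH. All METH libraries lay above all saline libraries, on 5 to 34 counts a library. The log2 fold change was 1.53 ± 0.43 (edgeR adjusted p = 0.493). In SVZ, A6 had 2.11, 2.35 and 2.36 CPM in saline and 3.76 and 4.33 CPM after METH, with 0.83 ± 0.50 (edgeR adjusted p = 1.00). In NAc the log2 fold change at A6 was 0.10 ± 0.39, with 0.80 in name series 1 alone and -0.64 in series 2 alone.

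A6 was the one OCR of the 44 whose DG libraries did not overlap with METH above saline, beside 0.524% of the table. P6 and P24 were lower in every METH NAc library, 2 of 44 beside 1.91%, and P14 was lower in every METH CA library, 1 of 44 beside 0.363%. P14 in CA had 2.38, 1.94, 1.39 and 1.91 CPM after METH, with a log2 fold change of -0.55 ± 0.40. In SVZ, with 3 libraries against 2, A6 and A9 lay above (10.6% of the table) and P5, P8, P18 and P30 below (9.62% of the table).

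The other OCRs with the lowest METH p in a window and region did not pass either. In DG, P10 (chr10:86288590-86288992) had -0.95 ± 0.40 (edgeR adjusted p = 0.493). In CA, A4 had 0.53 ± 0.33 (edgeR adjusted p = 1.00) and P23 (chr10:86327147-86327394) had -0.70 ± 0.39 (edgeR adjusted p = 1.00). In SVZ, P5 (chr10:86250762-86251976) had 18.1, 17.7 and 17.0 CPM in saline and 8.67 and 14.9 CPM after METH, a log2 fold change of -0.58 ± 0.28 (edgeR adjusted p = 1.00).

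The last test asked whether the METH effect differed between regions. None of the 44 OCRs was called (edgeR, 3 interaction terms together, lowest adjusted p = 0.999), beside 0% of the table, and none had an unadjusted p under 0.05, beside 2.10% of the table. DESeq2 gave no adjusted p for 34 of the 44 and called none of the rest. With 5 RUVr factors, 8 of the 44 passed (A1, P5, P7, P10, P11, P18, P19 and P22), beside 22.9% of the table. None of these fits had the animal as a block, although libraries of 1 animal occur in several regions.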

How the data were processed

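ATAC-seq libraries were prepared from frozen tissue by the Omni-ATAC protocol. The deposited table holds raw counts per OCR in rn6, which the authors made with the AIAP pipeline at its defaults and by merging peaks with mergeBed; the pipeline's version and single settings are not given in the sources used here. Beside it, the authors deposited a peak list for each library, with fold enrichment as a ratio and -log10 p and q values, called per library. Columns were matched to samples by title.

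Counts of all 98237 OCRs were fitted in R 4.3.3 with edgeR 4.0.16 (upper-quartile library sizes, robust quasi-likelihood F tests, Benjamini-Hochberg adjustment over the table). One fit of 8 groups in 29 libraries tested METH against saline, and another of the 15 saline libraries tested regions. The script was tested on simulated counts. The filter on low counts removed no OCR. The study also removed RUVr factors, here an alternative. Other alternatives were TMM, DESeq2 1.42.0, blocks, name series and leaving out libraries. Peaks counted when they overlapped an OCR by 1 bp. Named OCRs were, per window, the 3 with the highest mean CPM, those with the largest positive and negative NAc difference, the lowest METH p in each region, and on other chromosomes the 3 most correlated. The members and lists were chosen with earlier results of these data known.

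Equal replicate numbers mark 1 animal in NAc, DG and CA within a treatment, from the peak names, so regions were also fitted with the animal as a block. Deviations from group means correlated with r from -0.43 to 0.66 over 39 pairs of libraries of 1 animal, 15 of them above 0.1. METH and saline rats were different animals. By the peak names, the libraries of a group came from different animals. The p-values measure the spread between these libraries, and separate preparation of each was not stated. The dopamine, adenosine and cell type marker genes, positions relative to genes, and sequences were not analysed here.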

Additional observations from a re-analysis of the deposited data

Results flagged for a closer look

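In groups of 4 libraries, a library was singled out where its gap to the nearest other library was a large part of the group's range (Dixon's 95% critical value). Chance singles out about 1 in 20 of the 108 groups tested, and 3 were found. A11 had 1.69 CPM in CA METH replicate 2, while the other 3 libraries of that group had 3.19 to 3.39 CPM. A3 had 3.78 CPM in NAc METH replicate 2, while the others had 2.11 to 2.4 CPM. The Adora2a window held 35.9 per M OCR counts in DG saline replicate 2 and 48.4 to 50.3 per M in the other 3. Peaks of the library lists that overlap no OCR were not used in the report. In the Adora2a window there were 5.75 of them on average in the 4 CA METH libraries (2, 3, 7 and 11), against 1 to 5 in the 4 saline CA libraries, and the groups overlapped.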

How the results depend on the processing

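Counts are of the 44 OCRs. The higher calls in NAc against the other 3 regions (3) fell to 0 in name series 1 alone, a smaller set of libraries in which no OCR of the table passed. They were 4 with DESeq2 (6.20% of the table called higher) and with the animal block (6.70%), and 2 in series 2 alone (3.33%) or where the METH libraries replaced the saline ones (2.18%). Lower in DG (1 called), there were 4 with DESeq2, 0 with TMM, in either name series alone or with METH libraries, and 2 with METH libraries without NAc METH replicate 3 (0 to 3 with 1 library left out). Higher in CA (0), there were 2 with DESeq2 and 3 with METH libraries (1.19% of the table), with or without that library (0 to 1). Lower in CA (1), there were 2 with DESeq2 and 0 with TMM, METH libraries or either name series (0 to 1). Higher in SVZ (0), there was 1 with DESeq2 (0 to 1). Between NAc and DG (4), there were 8 with DESeq2 (11.6% of the table in either direction), 2 with METH libraries (4.17%) and 0 in series 1. Between NAc and CA (4), there were 9 with DESeq2 (12.5%), 7 with METH libraries (7.36%), 9 without NAc METH replicate 3 (8.88%) and 0 in series 1. Between DG and SVZ (2), there were 5 with DESeq2, 1 with TMM, the animal block, series 2 or METH libraries without that replicate, and 0 with METH libraries or in series 1 (0 to 4). Between CA and SVZ (1), there were 5 with DESeq2, 2 with the animal block or in series 2, and 0 with METH libraries or in series 1 (0 to 3). A test of the METH effect between regions called 8 with 5 RUVr factors and 0 without. DESeq2 also called more of the whole table, 11.6% between NAc and DG against 6.23% in the main fit. Where no share of the table is given, a change of count was not set beside that of all OCRs. Such a change is not read as a trait of the 44. The cause of these changes was not tested.

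With the replicate number as a block, which pairs different METH and saline rats, METH calls stayed at 0 in all 4 regions. Region counts in that fit were 3 (NAc higher), 2 (DG lower), 1 (SVZ higher), 5 (NAc and DG), 5 (NAc and CA) and 3 (DG and SVZ). It called more of the table too, 5.75% higher in NAc, 8.12% between NAc and DG and 9.15% between NAc and CA. Of 14 pairs of METH and saline libraries with 1 number, 7 had correlated deviations above 0.1.

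Among the estimates followed through all alternatives, directions turned for A4 in NAc (-0.17 in series 1 alone) and for METH in NAc at P16. The P16 estimate was 0.10 in series 1 alone and -0.27 to 0.14 with 1 library left out. It was above 0 without NAc METH replicate 3 or NAc saline replicate 1. Estimates outside that set turned too and are not listed in full. Examples are METH in NAc at A6 (-0.64 in series 2 alone) and METH in CA at A5 (0.31 in the main fit, -1.63 in series 1 alone). P22 in CA against the other 3 regions had 0.62 in the main fit and -0.71 in series 2 alone. The Ppp1r1b window held 264.2 per M in METH-treated DG with upper-quartile scaling and 240.6 without. With peaks of -log10 q above 5 only, 0 OCRs of the Adora2a window had a peak in every DG library, against 1 with all peaks. A filter on low counts removed no OCR. Low counts limited A2, A5, A6 and A7 in hippocampus, and SVZ had 3 and 2 libraries.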
